A study of Homo sapiens with 12 samples.

Results

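TP63, KLF4, GRHL1, GRHL2, GRHL3, OVOL1, ZNF750, TFAP2A and TFAP2C are transcription factors of the epidermis, and their transcripts were followed through a knockdown experiment in human keratinocytes. They were taken by gene name from the deposited count table, as 9 of its 58735 genes, and all 9 passed the filter on low counts that left 14920 genes for testing. Messenger RNA was sequenced in 12 libraries from N/TERT-2G, an immortalised line of human skin keratinocytes kept in serum-free keratinocyte medium. The 4 groups of 3 libraries received ATF3 siRNA, APOE siRNA, CXCL14 siRNA or a negative control siRNA, each at 100 pmol per well of a 6-well plate with 5 μl of Lipofectamine 2000, and the medium was exchanged after 6 h. ATF3 encodes a stress-induced transcription factor, APOE a carrier of lipids and CXCL14 a chemokine made by epithelia. The labels give neither the siRNA sequences, nor whether a target had a single siRNA or a pool, nor the time from transfection to RNA extraction. They also do not say whether the replicates are separate cultures; the p-values therefore reflect how far the 12 libraries scatter, which may be technical.

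p63, the product of TP63, is the central regulator of stratified epithelium: it keeps basal keratinocytes attached and able to divide, and it prepares the enhancers that are used when they differentiate. As cells leave the basal layer, KLF4, GRHL3, OVOL1 and ZNF750 drive the late program of cornified envelope and barrier genes, and ZNF750 is itself switched on by p63. The grainyhead-like factors GRHL1, GRHL2 and GRHL3 share a DNA-binding domain and control junction and envelope genes, while TFAP2A and TFAP2C are AP-2 factors that bind the promoters of many keratinocyte genes.

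The knockdowns were visible in the counts of each target. ATF3 had 261, 223 and 190 counts in the ATF3 siRNA libraries, against 712, 708 and 653 in the control libraries. APOE had 2, 5 and 3 counts with APOE siRNA, against 46, 59 and 51 with control siRNA. CXCL14 was already low, with 1, 1 and 0 counts with CXCL14 siRNA, against 7, 6 and 11 with control siRNA. In this design, loss of a target and other effects of its siRNA cannot be told apart, for CXCL14 or the other targets. The targets also moved with each other's siRNA: CXCL14 rose to 234, 78 and 142 counts with APOE siRNA, and with CXCL14 siRNA ATF3 and APOE rose by 0.70 ± 0.07 and 0.89 ± 0.20 on the log2 scale. Total counts per library ran from 16225691 to 22246755. Of 9 keratinocyte markers, all were present, and their summed level was 32020 to 34581 CPM (counts scaled to library size) with ATF3 siRNA, 39378 to 42190 with APOE siRNA, 21228 to 22266 with CXCL14 siRNA and 30839 to 33397 with control siRNA. PTPRC, CD3E, LYZ and TYR, markers of blood cells and melanocytes, were at 0 counts in all libraries. Of 7 immune markers 6 averaged under 1 CPM, and CD14 brought their sum to 2.76 to 5.08 CPM with ATF3 siRNA, 5.75 to 6.25 CPM with APOE siRNA, 0.981 to 1.48 CPM with CXCL14 siRNA and 2.12 to 3.41 CPM with control siRNA. Of 7 melanocyte markers 5 averaged under 1 CPM, and their sum was 3.37 to 3.99 CPM with ATF3 siRNA, 3.07 to 3.96 CPM with APOE siRNA, 6.60 to 6.76 CPM with CXCL14 siRNA and 3.39 to 4.20 CPM with control siRNA, with MITF at 4.46 CPM with CXCL14 siRNA, against 1.93 CPM with control siRNA. Of 7 fibroblast markers 6 averaged under 1 CPM, and COL1A1 brought their sum to 32.6 to 40.8 CPM with ATF3 siRNA. It was 74.3 to 87.9 CPM with APOE siRNA, 14.6 to 17.8 CPM with CXCL14 siRNA and 25.4 to 34.2 CPM with control siRNA. Of 6 endothelial markers 5 averaged under 1 CPM. The 5 simple epithelium markers summed to 591 to 695 CPM with ATF3 siRNA and 741 to 866 CPM with APOE siRNA. Their sum was 844 to 1032 CPM with CXCL14 siRNA and 762 to 791 CPM with control siRNA, mostly from KRT8 and KRT18. The part of all these markers in the results was not tested.

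Levels of different genes were compared as FPKM, which corrects for gene length. With control siRNA, TP63 was the highest of the 9, at 45.7 ± 1.44 FPKM (mean ± SD, n = 3 here and below). KLF4 followed at 25.0 ± 2.50 FPKM, TFAP2A at 15.5 ± 0.196 FPKM, GRHL2 at 13.1 ± 0.172 FPKM, TFAP2C at 6.92 ± 0.414 FPKM and GRHL3 at 5.06 ± 0.433 FPKM. No library of one of these genes overlapped with those of the next in this order. OVOL1 at 1.65 ± 0.261 FPKM, ZNF750 at 1.54 ± 0.119 FPKM and GRHL1 at 1.38 ± 0.125 FPKM formed the lowest trio, and their neighbouring ranges overlapped. The order differed with the siRNA. KLF4 stood above TP63 with CXCL14 siRNA, at 36.4 ± 0.442 FPKM against 21.4 ± 1.59 FPKM. ZNF750 stood at 4.67 ± 1.45 FPKM with ATF3 siRNA and 6.79 ± 0.556 FPKM with APOE siRNA, above OVOL1 and GRHL1 in both groups by its mean.

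**Figure D1:**
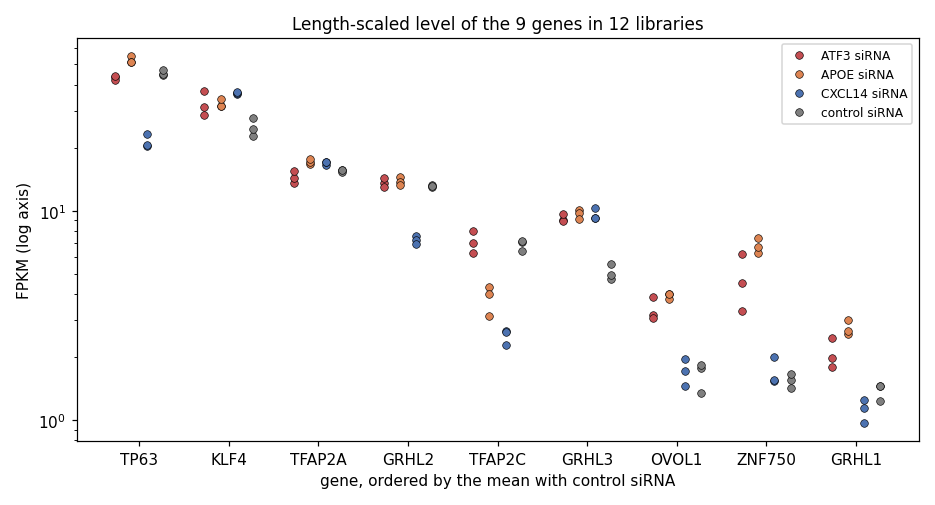
FPKM (log axis) of each of the 9 genes in the 12 libraries, with genes ordered by their mean with control siRNA and 1 point per library, coloured by siRNA. TP63 and GRHL2 lay lower in the CXCL14 siRNA libraries (21.4 and 7.26 FPKM on average) than in the control libraries (45.7 and 13.1 FPKM).

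Each siRNA was compared with the control, and the siRNAs with each other, by edgeR's quasi-likelihood test over all 14920 genes, with Benjamini-Hochberg adjustment and a call at an adjusted p under 0.05. With ATF3 siRNA 5 of the 9 factors rose and 0 fell, where 20.4% of all genes tested were called. With APOE siRNA 7 rose and 1 fell, where 44.8% of all genes were called. With CXCL14 siRNA 2 rose and 3 fell, where 55.8% of all genes were called, a share close to that of the 9. The median log2 fold change of the 9 was 0.38 with ATF3 siRNA, 0.40 with APOE siRNA and 0.04 with CXCL14 siRNA, beside medians of all genes of 0.0032, 0.012 and 0.013. The 3 comparisons use the same control libraries. The 9 factors were chosen with earlier results of these data known, so their counts are descriptions and no test against all genes. In bulk RNA, fewer cells of a type and less RNA per cell cannot be told apart.

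**Figure D2:**
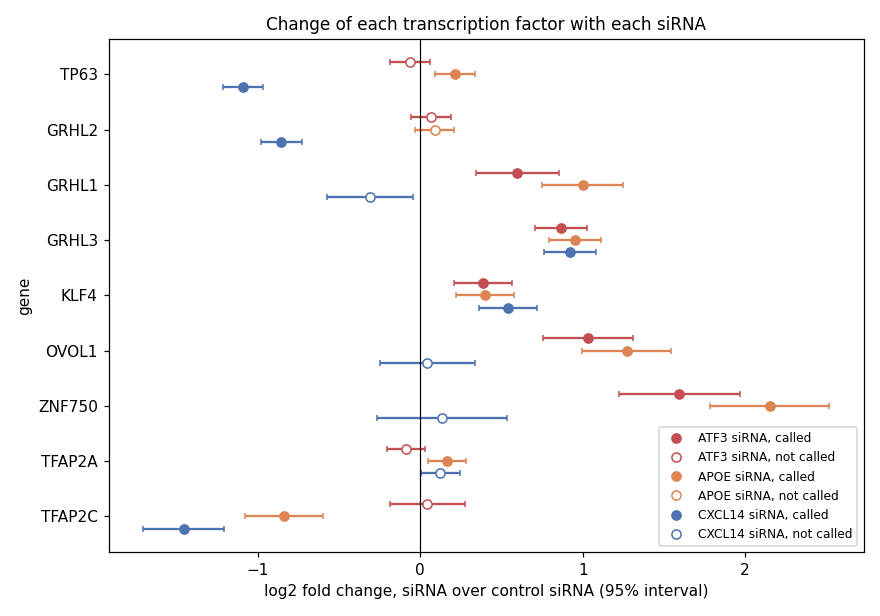
Log2 fold change of each factor with ATF3, APOE and CXCL14 siRNA over control siRNA, with 95% intervals; filled points were called at an adjusted p under 0.05. GRHL3 sat between 0.87 and 0.95 with each siRNA, while TP63 sat at -0.07 and 0.21 with ATF3 and APOE siRNA and at -1.09 with CXCL14 siRNA.

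TP63 fell with CXCL14 siRNA, rose slightly with APOE siRNA and was not called with ATF3 siRNA. Its level was 331, 321 and 337 CPM with ATF3 siRNA, 416, 391 and 391 CPM with APOE siRNA, 175, 155 and 155 CPM with CXCL14 siRNA, and 335, 341 and 359 CPM with control siRNA. All 3 CXCL14 siRNA libraries lay far below every other library, the APOE siRNA libraries lay above every other one, and the ATF3 siRNA libraries overlapped with the control. The log2 fold change over the control was -1.09 ± 0.06 with CXCL14 siRNA (± SE, adjusted p = 6.13e-10), a level 0.469 times that of the control. It was 0.21 ± 0.06 with APOE siRNA (adjusted p = 0.0111), a call that was lost without APOE siRNA replicate 1 (adjusted p = 0.0528) and with scaling by library size alone (adjusted p = 0.0618). With ATF3 siRNA it was -0.07 ± 0.06 (adjusted p = 0.504), with a 95% interval of -0.19 to 0.06. TP63 lies at chr3:189631416-189897279 on the plus strand (hg38) and is transcribed from an upstream start, which gives the isoforms called TAp63, and from an internal start, which gives ΔNp63, the main form of basal keratinocytes. GENCODE 29 lists 6 transcripts from the upstream region and 8 from the internal one, 158 kb downstream, and the counts per gene do not separate them.

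GRHL2, which maintains the epithelial state and its junctions, stood apart in the same libraries. It had 83.5, 80.5 and 88.8 CPM with ATF3 siRNA, 89.3, 85.2 and 82.3 CPM with APOE siRNA, 46.3, 44.6 and 42.7 CPM with CXCL14 siRNA, and 81.5, 79.5 and 80.7 CPM with control siRNA. The CXCL14 siRNA libraries formed a separate low group, the ATF3 siRNA libraries overlapped with the control libraries, and the APOE siRNA libraries lay slightly above them. The fall with CXCL14 siRNA was -0.86 ± 0.06 (adjusted p = 9.91e-09), and the differences with ATF3 siRNA (0.06 ± 0.06, adjusted p = 0.512) and APOE siRNA (0.09 ± 0.06, adjusted p = 0.268) did not pass. Over the 12 libraries, log2 CPM of GRHL2 and TP63 correlated at r = 0.98, a description of points that fall into groups and share their libraries. The summed level of the keratinocyte markers was lowest with CXCL14 siRNA as well, where 6 of 9 markers fell and 1 rose. Of all genes tested, 28.4% fell and 27.4% rose with this siRNA. Many of these markers, KRT5 and KRT14 among them, are also counted as p63 target genes below. The part of the summed level in the TP63 and GRHL2 results was not tested.

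GRHL3, a grainyhead-like factor of the late program that the epidermal barrier of mice requires, rose with all 3 siRNAs. It had 36.1, 35.9 and 38.6 CPM with ATF3 siRNA, 40.7, 39.4 and 36.9 CPM with APOE siRNA, 36.7, 41.1 and 37.0 CPM with CXCL14 siRNA, and 22.1, 18.7 and 19.8 CPM with control siRNA. Every library of the 3 target siRNAs lay above every control library. The log2 fold changes were 0.87 ± 0.08 (ATF3 siRNA, adjusted p = 2.25e-06), 0.95 ± 0.08 (APOE siRNA, adjusted p = 1.35e-07) and 0.92 ± 0.08 (CXCL14 siRNA, adjusted p = 8.15e-08). These are folds of 1.82, 1.93 and 1.89. The direct differences between siRNAs did not pass the test. Their 95% intervals on the log2 scale were -0.23 to 0.07 for ATF3 against APOE siRNA, -0.20 to 0.10 for ATF3 against CXCL14 siRNA and -0.12 to 0.18 for APOE against CXCL14 siRNA.

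KLF4, a zinc finger factor that mice need to build the skin barrier, also rose with all 3 siRNAs, but by less. It had 107, 117 and 139 CPM with ATF3 siRNA, 119, 119 and 129 CPM with APOE siRNA, 133, 135 and 136 CPM with CXCL14 siRNA, and 84.2, 90.8 and 103 CPM with control siRNA. Each siRNA group lay above the control, with the narrowest gap between the lowest ATF3 siRNA library and the highest control library. The log2 fold changes were 0.38 ± 0.09 (ATF3 siRNA, adjusted p = 0.00719), 0.40 ± 0.09 (APOE siRNA, adjusted p = 0.00214) and 0.54 ± 0.09 (CXCL14 siRNA, adjusted p = 9.37e-05). The direct differences between siRNAs were not called in the main fit, over all 12 libraries without a replicate block. CXCL14 siRNA gave the highest mean, and the intervals of the difference reached from -0.33 to 0.02 for ATF3 siRNA and from -0.32 to 0.03 for APOE siRNA against it. All APOE siRNA libraries lay below all CXCL14 siRNA libraries, and that difference was called with the replicate number as a block (adjusted p = 0.0493) and in a fit of the 2 groups alone (adjusted p = 0.0369). The difference of ATF3 from CXCL14 siRNA was called with the block as well (adjusted p = 0.0297).

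KLF4 and GRHL3 were the members called higher with each siRNA. With ATF3, APOE and CXCL14 siRNA 11.2%, 22.3% and 27.4% of all genes rose, and the share called higher with all 3 was not counted. The 250 bases upstream of their annotated starts are shown because of these shared calls. Over the 12 libraries log2 CPM of KLF4 and GRHL3 correlated at r = 0.83, below the r = 0.98 of TP63 and GRHL2. The windows come from a set of RefSeq promoter windows (GRCh38.p14). The set used here held windows for 5 of the 9 factors, 7 in all. Capitals mark matches, on either strand, to the motifs searched. In the KLF4 window they mark an E-box 157 bases and an AP-2 match 10 bases upstream of the start, in the upstream GRHL3 window 2 CACCC boxes that overlap by a base, 119 and 112 bases upstream, and in the window of the second GRHL3 start a p63 decamer motif 107 bases and an AP-2 match 50 bases upstream.
KLF4, chr9:107489770-107490019, minus strand: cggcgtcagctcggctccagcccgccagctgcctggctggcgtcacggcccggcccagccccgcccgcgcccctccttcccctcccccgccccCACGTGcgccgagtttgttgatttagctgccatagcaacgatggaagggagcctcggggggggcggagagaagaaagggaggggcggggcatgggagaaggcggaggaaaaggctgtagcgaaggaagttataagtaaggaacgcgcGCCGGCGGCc
GRHL3 upstream start, chr1:24319107-24319356, plus strand: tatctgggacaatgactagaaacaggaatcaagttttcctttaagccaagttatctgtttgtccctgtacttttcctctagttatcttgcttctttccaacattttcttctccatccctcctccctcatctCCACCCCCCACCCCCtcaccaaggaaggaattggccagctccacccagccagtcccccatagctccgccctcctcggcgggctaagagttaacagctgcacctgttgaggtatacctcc
GRHL3 second start, chr1:24322790-24323039, plus strand: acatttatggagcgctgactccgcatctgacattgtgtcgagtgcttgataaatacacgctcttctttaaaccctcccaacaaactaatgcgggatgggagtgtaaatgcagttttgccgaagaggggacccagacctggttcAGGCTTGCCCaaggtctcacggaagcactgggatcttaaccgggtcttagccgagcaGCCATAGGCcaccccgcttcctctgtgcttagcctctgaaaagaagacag

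Of the 34943 RefSeq windows of the same length, 19.7% held the AP-2 motif, written GCCNNNGGC, 15.7% the CACCC box, written CCACNCCC, 6.32% the E-box, written CACGTG, and 5.58% the p63 decamer motif. The AP-1 motif, written TGANTCA, stood in 6.59% of all windows, the cyclic AMP response element, written TGACGTCA, in 1.63% and the grainyhead-like site, written AACCGGTT, in 0.114%, and these letters were not in the windows of the 5 factors. An upstream TFAP2A window held a CACCC box 250 bases from its start, and the windows of TP63 and GRHL1 and the other TFAP2A window held no match. The TP63 window lies at the upstream start, and no window at the internal start, that of ΔNp63, was searched. A match says only that these letters are present.

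OVOL1 and ZNF750 rose with ATF3 and APOE siRNA. OVOL1 is a zinc finger repressor that helps cells leave the basal state. It had 12.4, 12.1 and 15.2 CPM with ATF3 siRNA, 15.8, 15.0 and 15.8 CPM with APOE siRNA, 5.64, 7.63 and 6.65 CPM with CXCL14 siRNA, and 5.26, 6.87 and 7.19 CPM with control siRNA. The ATF3 and APOE siRNA libraries lay well above all others, and the CXCL14 siRNA libraries overlapped with the control. The log2 fold changes were 1.03 ± 0.14 (ATF3 siRNA, adjusted p = 9.59e-05), 1.27 ± 0.14 (APOE siRNA, adjusted p = 2.13e-06) and 0.04 ± 0.15 (CXCL14 siRNA, adjusted p = 0.823). Of the antisense genes at this locus, AP001266.1 shares 27.1% of the exonic bases of OVOL1 and had 0 counts in all groups, and OVOL1-AS1 shares 0 bases and had 4 to 13 counts summed over a group.

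ZNF750, a p63-induced factor that turns on late differentiation genes, had the largest fold changes of the 9 with ATF3 and APOE siRNA. It had 12.5, 17.0 and 23.5 CPM with ATF3 siRNA, 28.0, 23.9 and 25.5 CPM with APOE siRNA, 7.49, 5.78 and 5.83 CPM with CXCL14 siRNA, and 5.32, 5.84 and 6.26 CPM with control siRNA. The ATF3 siRNA libraries were spread widely but all lay above the control libraries, the APOE siRNA libraries were higher still, and the CXCL14 siRNA libraries overlapped with the control. The log2 fold changes were 1.60 ± 0.19 with ATF3 siRNA (adjusted p = 2.44e-05), 2.15 ± 0.19 with APOE siRNA (adjusted p = 1.48e-07), a fold of 4.44, and 0.13 ± 0.20 with CXCL14 siRNA (adjusted p = 0.612). ZNF750 lies inside TBCD, a tubulin-folding gene on the opposite strand, and it is not known whether the counting used strand. Their annotated exons share 0 bases, and the log2 fold changes of TBCD were 0.18 ± 0.06 with ATF3 siRNA, 0.11 ± 0.06 with APOE siRNA and -0.29 ± 0.06 with CXCL14 siRNA.

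GRHL1, a grainyhead-like factor of desmosome genes, rose with ATF3 and APOE siRNA as well. It had 14.6, 16.1 and 20.1 CPM with ATF3 siRNA, 24.3, 21.0 and 21.6 CPM with APOE siRNA, 10.02, 9.21 and 7.82 CPM with CXCL14 siRNA, and 11.7, 11.7 and 10.04 CPM with control siRNA. The APOE siRNA libraries were the highest, the ATF3 siRNA libraries came next, and the CXCL14 siRNA libraries sat just below or below the lowest control library. The log2 fold changes were 0.60 ± 0.13 (ATF3 siRNA, adjusted p = 0.0042), 1.00 ± 0.13 (APOE siRNA, adjusted p = 1.03e-05) and -0.31 ± 0.14 (CXCL14 siRNA, adjusted p = 0.0625). The value for CXCL14 siRNA stood near the threshold and passed it without CXCL14 siRNA replicate 1 (adjusted p = 0.0381) or control replicate 3 (adjusted p = 0.0445), among other settings. ATF3 siRNA replicate 3 was the highest of its group for 9 of 9 factors. Without it the log2 fold changes with ATF3 siRNA were 0.27 for KLF4, 0.46 for GRHL1, 0.83 for GRHL3, 0.93 for OVOL1 and 1.34 for ZNF750, and all 5 calls held (adjusted p of 0.0325, 0.0195, 1.33e-05, 0.000496 and 3.04e-05 in that order).

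**Figure D3:**
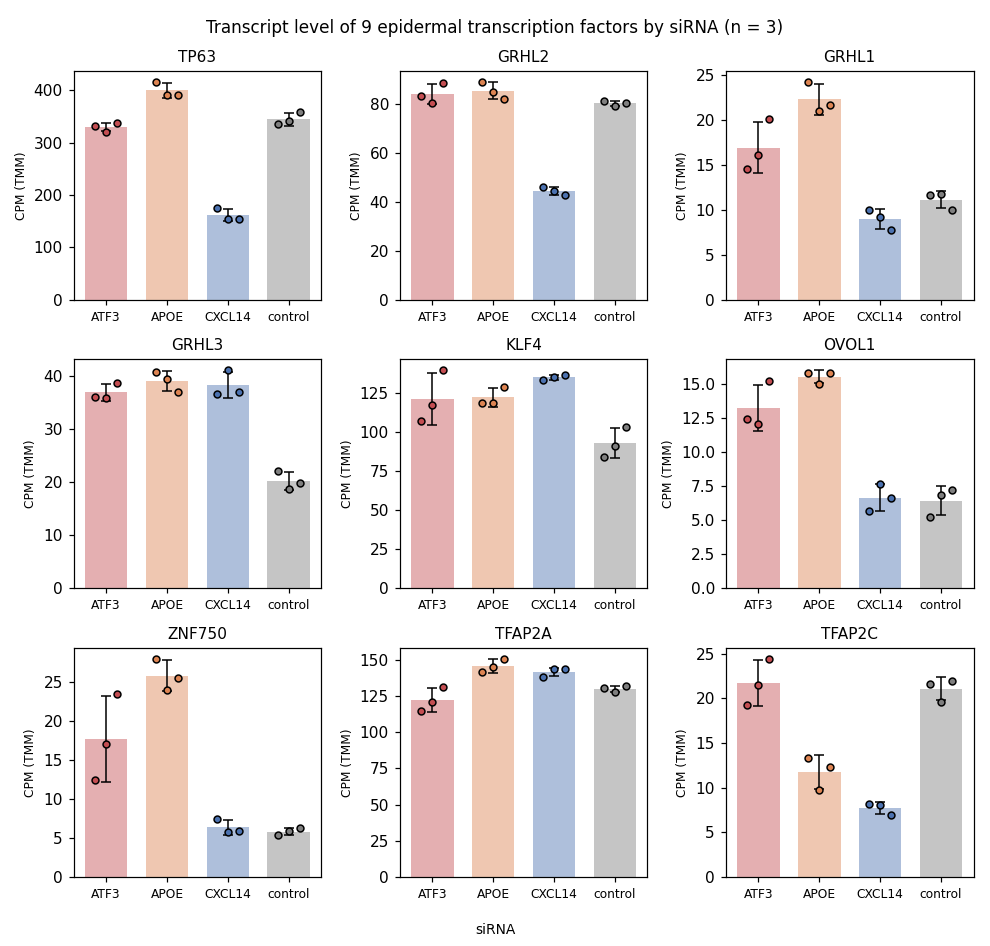
CPM of each factor by siRNA, with 1 point per library, bars at the mean of 3 libraries and error bars of 1 SD; each panel has its own axis from 0. TP63, GRHL2 and TFAP2C were low with CXCL14 siRNA (162, 44.5 and 7.68 CPM on average, against 345, 80.5 and 21.1 CPM with control siRNA), and OVOL1 and ZNF750 were high with ATF3 and APOE siRNA.

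The AP-2 factors differed from each other. TFAP2C had 19.3, 21.5 and 24.4 CPM with ATF3 siRNA, 13.3, 9.69 and 12.3 CPM with APOE siRNA, 8.12, 8.01 and 6.92 CPM with CXCL14 siRNA, and 21.6, 19.6 and 22.001 CPM with control siRNA. The APOE and CXCL14 siRNA libraries formed separate low groups, CXCL14 siRNA the lower one, while the ATF3 siRNA libraries overlapped with the control. TFAP2C fell by 0.84 ± 0.12 on the log2 scale with APOE siRNA (adjusted p = 4.02e-05) and by 1.46 ± 0.13 with CXCL14 siRNA (adjusted p = 7.13e-08), and its log2 fold change with ATF3 siRNA was 0.04 ± 0.12 (adjusted p = 0.842).

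TFAP2A had 115, 121 and 131 CPM with ATF3 siRNA, 141, 145 and 151 CPM with APOE siRNA, 138, 143 and 143 CPM with CXCL14 siRNA, and 130, 128 and 132 CPM with control siRNA. All 12 values lay within a narrow band, with the APOE and CXCL14 siRNA libraries above the control libraries. The log2 fold change was 0.16 ± 0.06 with APOE siRNA (adjusted p = 0.0360), and this call was lost in 8 of 22 alternatives, among them scaling by library size alone (adjusted p = 0.137) and leaving out any of the control libraries (adjusted p of 0.0747, 0.116 and 0.0804 without replicates 1, 2 and 3). It was -0.09 ± 0.06 with ATF3 siRNA (adjusted p = 0.335) and 0.12 ± 0.06 with CXCL14 siRNA (adjusted p = 0.0930). The antisense genes TFAP2A-AS2 and TFAP2A-AS1 share 11.4% and 5.29% of its exonic bases, and had 45 to 59 and 35 to 39 counts summed over a group.

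The direct comparisons tested whether siRNAs differed from each other. Between ATF3 and APOE siRNA 1 factor was higher and 4 were lower with ATF3 siRNA, where 38.2% of all genes were called. TFAP2C was the higher one (0.88 ± 0.12, adjusted p = 2.86e-05), and TP63 (-0.28 ± 0.06, adjusted p = 0.00206), TFAP2A (-0.25 ± 0.06, adjusted p = 0.00327), GRHL1 (-0.40 ± 0.12, adjusted p = 0.0160) and ZNF750 (-0.56 ± 0.17, adjusted p = 0.0140) were the lower ones. The calls of GRHL1 and ZNF750 were lost without ATF3 siRNA replicate 1 (adjusted p of 0.0884 and 0.0648) and without APOE siRNA replicate 1 (adjusted p of 0.0725 and 0.0530), and that of GRHL1 also without ATF3 siRNA replicate 2 (adjusted p = 0.0596).

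With ATF3 siRNA 6 factors were higher and 1 was lower than with CXCL14 siRNA, where 53.7% of all genes were called, and with APOE siRNA 6 were higher and 0 lower, where 55.5% were called. The higher ones were TP63, GRHL2, GRHL1, OVOL1, ZNF750 and TFAP2C in either comparison, and the comparisons share the CXCL14 siRNA libraries. TP63 differed by 1.03 ± 0.06 for ATF3 siRNA and 1.31 ± 0.06 for APOE siRNA (adjusted p of 1.36e-09 and 8.09e-11). GRHL2 differed by 0.92 ± 0.06 and 0.94 ± 0.06, GRHL1 by 0.91 ± 0.13 and 1.31 ± 0.13, OVOL1 by 0.99 ± 0.14 and 1.23 ± 0.14, ZNF750 by 1.46 ± 0.18 and 2.02 ± 0.18, and TFAP2C by 1.501 ± 0.13 and 0.62 ± 0.13, with ATF3 siRNA before APOE siRNA in each pair. TFAP2A was lower with ATF3 siRNA than with CXCL14 siRNA (-0.21 ± 0.06, adjusted p = 0.00715). These counts and values come from the fit without pairing. With the replicate number as a block, KLF4 was also called lower than with CXCL14 siRNA, both with APOE siRNA (adjusted p = 0.0493) and with ATF3 siRNA (adjusted p = 0.0297).

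The genes whose levels ran most like those of each factor over the 12 libraries were sought among the 10159 protein-coding genes that averaged 5 CPM or more, as the 3 with the highest Pearson correlation of log2 CPM. They describe a pattern over 4 groups, in which many genes move at once. For TP63 they were GJA1 (r = 0.995), which encodes the gap junction protein connexin 43, RRM2 (r = 0.993), a subunit of ribonucleotide reductase, and GLOD4 (r = 0.992). GJA1 fell by 1.76 ± 0.07 on the log2 scale with CXCL14 siRNA and RRM2 by 1.75 ± 0.07. For GRHL2 they were ATP2A2 (r = 0.995), the calcium pump of the endoplasmic reticulum, ARFGEF2 and KLHL8 (r = 0.993 each), and for TFAP2C they were CCSAP (r = 0.985), SLFN11 and ARHGEF3 (r = 0.981 each). For ZNF750 they were SPRR1A (r = 0.990), a cornified envelope precursor, LYPD3 (r = 0.976) and RAET1G (r = 0.974). For OVOL1 they were DDX56 (r = 0.985), KRT17 (r = 0.981), a keratin of stressed and wounded epidermis, and THBD (r = 0.974). For GRHL1 they were NOTCH3 (r = 0.973), a Notch receptor of suprabasal cells, PI3 (r = 0.972), the protease inhibitor elafin, and ADAMTSL4 (r = 0.968). For GRHL3 the first was ACLY (r = 0.984), which makes acetyl-CoA for lipid synthesis and rose by 1.56 ± 0.06, 1.64 ± 0.06 and 1.57 ± 0.06 with ATF3, APOE and CXCL14 siRNA, followed by RTF1 (r = 0.973) and COQ4 (r = 0.971). For KLF4 they were GAA (r = 0.976), a lysosomal glucosidase, NDUFS8 (r = 0.973) and RBCK1 (r = 0.972), and for TFAP2A RNPEP (r = 0.966), OSBPL1A (r = 0.965) and MAML1 (r = 0.963). SPRR1A and KRT17 have close copies in the genome, so their counts are uncertain.

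Genes around these factors were counted in lists of known members, which were chosen with earlier results of these data known. Some genes are on several lists, such as PPL, TGM1 and IVL among the differentiation genes and the grainyhead-like targets. The shares called, set beside those of all genes, are therefore descriptions. Of 32 known p63 target genes, all tested, 5 rose and 8 fell with ATF3 siRNA, 14 rose and 9 fell with APOE siRNA, and 3 rose and 18 fell with CXCL14 siRNA, with median log2 fold changes of -0.07, 0.15 and -0.37. That is 40.6%, 71.9% and 65.6% of the list, where 20.4%, 44.8% and 55.8% of all genes tested were called. By direction, 11.2% of all genes rose and 9.14% fell with ATF3 siRNA, 22.3% rose and 22.5% fell with APOE siRNA, and 27.4% rose and 28.4% fell with CXCL14 siRNA. With CXCL14 siRNA, DSC3, a desmosomal cadherin, fell by 1.78 ± 0.08, PTHLH, a secreted hormone-like protein, by 1.87 ± 0.09, and FERMT1, an integrin activator, by 1.15 ± 0.06. CDKN1A, a cell cycle inhibitor that p63 represses, rose by 1.04 ± 0.06, and it rose by 0.52 ± 0.06 with ATF3 siRNA and by 0.85 ± 0.06 with APOE siRNA too. With APOE siRNA DSC3 rose by 0.82 ± 0.08 and PERP, a desmosomal protein, by 0.56 ± 0.06, whereas COL17A1, a hemidesmosomal collagen, fell by 0.58 ± 0.06. The count of rises with CXCL14 siRNA was 6 with scaling by library size alone, and the falls with ATF3 siRNA were 5 without control replicate 1.

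Of 39 genes of the differentiation program, 29 were tested, GRHL3 and OVOL1 among them. With ATF3 siRNA 21 rose and 0 fell (median 1.26), with APOE siRNA 22 rose and 1 fell (median 1.14), and with CXCL14 siRNA 10 rose and 6 fell (median 0.20). The called share was 72.4%, 79.3% and 55.2%, beside 20.4%, 44.8% and 55.8% of all genes, so that with CXCL14 siRNA it was near the background. With ATF3 siRNA TGM1, the transglutaminase that cross-links the envelope, rose by 2.94 ± 0.19 to 88.9 CPM, against 11.5 CPM with control siRNA, and IVL, its substrate involucrin, rose by 1.77 ± 0.11. With APOE siRNA KRTDAP, a secreted peptide of differentiating keratinocytes, rose by 4.32 ± 0.27 to 13.1 CPM, against 0.648 CPM with control siRNA, SBSN rose by 3.61 ± 0.21 and SPRR1A by 2.61 ± 0.16, and PADI3, a peptidylarginine deiminase, fell by 1.07 ± 0.28. With CXCL14 siRNA DSC2, a desmosomal cadherin, fell by 0.90 ± 0.07 and the envelope precursors SPRR2A and SPRR2D fell by 1.58 ± 0.15 and 1.29 ± 0.13. GRHL3 (0.92 ± 0.08), SBSN (1.68 ± 0.24) and KRTDAP (1.55 ± 0.33) rose with the same siRNA. SBSN and KRTDAP rose from low levels, 0.956 and 0.648 CPM with control siRNA. The 10 rises with CXCL14 siRNA became 6 under a stricter filter on low counts.

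Of 25 grainyhead-like target genes, 24 were tested. With ATF3 siRNA 11 rose and 2 fell, with APOE siRNA 13 rose and 5 fell, and with CXCL14 siRNA 6 rose and 7 fell (medians 0.25, 0.25 and -0.07). The called share was 54.2%, 75% and 54.2%, beside 20.4%, 44.8% and 55.8% of all genes, again near the background with CXCL14 siRNA. CDH1, which encodes E-cadherin, rose by 0.53 ± 0.06 with APOE siRNA. With CXCL14 siRNA tight junction genes moved both ways: MARVELD2 and CLDN7 fell by 1.58 ± 0.10 and 1.57 ± 0.10, and CGN rose by 1.79 ± 0.11. GRHL2 fell and GRHL3 rose with the same siRNA, and a link to these genes was not tested. With 1 library left out the 2 falls with ATF3 siRNA became 0 without ATF3 siRNA replicate 1 or control replicate 2 and 1 without ATF3 siRNA replicate 2 or control replicate 3. Of 12 genes of the mesenchymal transition, which grainyhead-like and OVOL factors oppose, ZEB1, ZEB2, SNAI1 and PRRX1 did not pass the filter. Of the 8 tested, 3 rose and 1 fell with CXCL14 siRNA: CDH2, which encodes N-cadherin, had 50, 62 and 54 counts with CXCL14 siRNA, against 1, 1 and 3 with control siRNA, SPARC rose by 0.87 ± 0.08 and VIM by 0.49 ± 0.10, and SNAI2 fell by 0.82 ± 0.07. With ATF3 siRNA 1 rose and 1 fell: CDH2 had 14, 9 and 4 counts (adjusted p = 0.0332), and VIM fell by 0.83 ± 0.10. The count of rises was 0 in 9 of 22 alternatives, among them a stricter filter and leaving out ATF3 siRNA replicate 1 or 2 or control replicate 1 or 2. With APOE siRNA 1 rose and 3 fell: SNAI2 rose by 0.44 ± 0.06, and SPARC, VIM and FN1, which encodes fibronectin, fell by 0.61 ± 0.08, 0.40 ± 0.10 and 0.26 ± 0.09. With ATF3, APOE and CXCL14 siRNA 25%, 50% and 50% of these 8 genes were called, near the 20.4%, 44.8% and 55.8% of all genes.

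**Figure D4:**
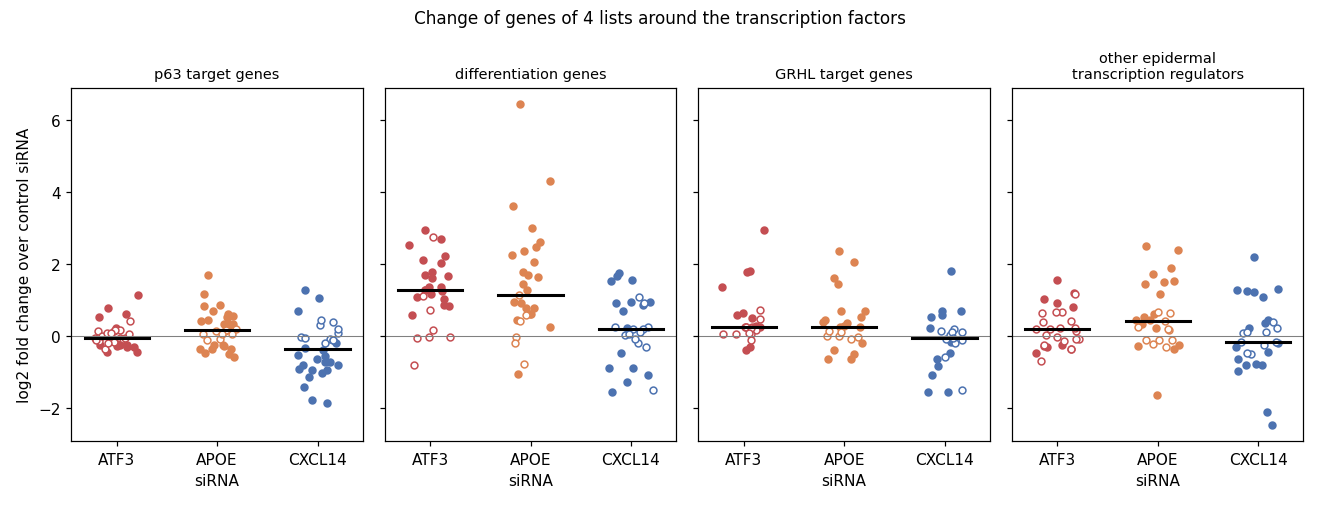
Log2 fold change over control siRNA of the tested genes of 4 lists with ATF3, APOE and CXCL14 siRNA; filled points were called at an adjusted p under 0.05 and the black bar is the median. The medians of the p63 target genes were -0.07, 0.15 and -0.37, and those of the differentiation genes 1.26, 1.14 and 0.20.

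Of 30 other transcription regulators of the epidermis, 29 were tested. With ATF3 siRNA 5 rose and 5 fell, with APOE siRNA 14 rose and 4 fell, and with CXCL14 siRNA 9 rose and 10 fell (medians 0.18, 0.41 and -0.16). The called share was 34.5%, 62.1% and 65.5%, beside 20.4%, 44.8% and 55.8% of all genes. The factors MAF and CEBPA, which promote differentiation, rose by 1.89 ± 0.17 and 1.71 ± 0.24 with APOE siRNA. EHF, an epithelial ETS factor, fell by 1.64 ± 0.10 with APOE siRNA and by 2.48 ± 0.10 with CXCL14 siRNA, to 61.0 and 34.1 CPM, against 190 CPM with control siRNA. With CXCL14 siRNA BNC1, a basal keratinocyte zinc finger factor, fell by 0.80 ± 0.06, and SATB1, a chromatin organiser, rose by 1.27 ± 0.14. With ATF3 siRNA MSX2 and ELF3 rose by 0.91 ± 0.17 and 1.02 ± 0.20, and TCF7L1 fell by 0.47 ± 0.11. Leaving out 1 library moved the rises with ATF3 siRNA to between 2 (without ATF3 siRNA replicate 3 or control replicate 1) and 9 (without ATF3 siRNA replicate 1), those with APOE siRNA to as few as 9 (without control replicate 2) and those with CXCL14 siRNA to as few as 5 (without CXCL14 siRNA replicate 2 or control replicate 1).

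Of 23 relatives of the 9 factors in the same families, 18 were tested. With ATF3 siRNA 2 rose and 6 fell, with APOE siRNA 5 rose and 6 fell, and with CXCL14 siRNA 2 rose and 9 fell (medians -0.03, -0.05 and -0.28). The called share was 44.4%, 61.1% and 61.1%, beside 20.4%, 44.8% and 55.8% of all genes. Among the relatives of the grainyhead-like factors, TFCP2L1 fell by 1.34 ± 0.07 and UBP1 by 1.22 ± 0.08 with CXCL14 siRNA. TFCP2L1 fell by 0.63 ± 0.07 with ATF3 siRNA but rose by 0.35 ± 0.07 with APOE siRNA. UBP1 fell by 0.27 ± 0.08 with ATF3 siRNA and by 0.22 ± 0.08 with APOE siRNA. Among the relatives of KLF4, KLF8 fell by 1.13 ± 0.13, 0.89 ± 0.13 and 0.43 ± 0.13 with ATF3, APOE and CXCL14 siRNA. KLF10 fell by 0.89 ± 0.06 with CXCL14 siRNA. KLF3, a repressor, rose by 0.28 ± 0.06, 0.44 ± 0.06 and 0.18 ± 0.06 with ATF3, APOE and CXCL14 siRNA. OVOL2, the sister gene of OVOL1, fell by 0.47 ± 0.09 with ATF3 siRNA, where OVOL1 rose. It fell by 1.13 ± 0.10 with CXCL14 siRNA, where OVOL1 was not called. With APOE siRNA, where OVOL1 rose, OVOL2 was not called (-0.19 ± 0.09, adjusted p = 0.105). TP73, the closest relative of TP63, rose with APOE siRNA (1.62 ± 0.30) and CXCL14 siRNA (1.15 ± 0.31), from few reads: it had 73, 43 and 60 counts in the APOE siRNA libraries and 43, 46 and 54 in the CXCL14 siRNA libraries, against 16, 12 and 25 with control siRNA. The 2 rises with ATF3 siRNA were 1 in 15 of 22 alternatives, and the 2 rises with CXCL14 siRNA were 1 without CXCL14 siRNA replicate 2 or control replicate 1 or 2. Of 24 cofactors and regulators of the 9 proteins, all tested, 1 rose and 6 fell with ATF3 siRNA, 4 rose and 5 fell with APOE siRNA, and 3 rose and 10 fell with CXCL14 siRNA (medians -0.07, -0.02 and -0.20). The called share was 29.2%, 37.5% and 54.2%, beside 20.4%, 44.8% and 55.8% of all genes, so that it was below the background with APOE siRNA and near it with CXCL14 siRNA. ITCH, a ubiquitin ligase of p63, fell by 0.47 ± 0.08 with APOE siRNA, while KCTD15 and CITED2 rose by 0.44 ± 0.06 and 0.84 ± 0.13. KDM1A, a histone demethylase that ZNF750 recruits, and WWP1, a ubiquitin ligase, each fell by 0.63 (± 0.07 and ± 0.08) with CXCL14 siRNA. CITED2 and MDM2 rose with CXCL14 siRNA, by 1.30 ± 0.13 and 0.68 ± 0.09. The 5 falls with APOE siRNA were 3 without APOE siRNA replicate 3, control replicate 1 or control replicate 2, 8 with no filter, 9 in a fit of the 2 groups alone and 8 with the replicate block, under which the rises were 7.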

How the data were processed

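RNA was sequenced from 12 libraries of N/TERT-2G keratinocytes in 4 siRNA groups. The authors deposited raw counts per gene and FPKM per gene. The tools listed in the submitters' processing notes are HISAT2 2.0.5 and featureCounts 1.5.0-p3, with hg38; the annotation and the strand setting are not given in the sources used here, and per the labels, libraries could be directional or not. The deposited FPKM values equalled count per length scaled by DESeq2 size factors.

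Counts were filtered with filterByExpr, scaled by TMM and fitted in edgeR 4.0.16 (R 4.3.3) with 1 term per group over all 12 libraries, by glmQLFit and glmQLFTest. Benjamini-Hochberg adjustment ran over all 14920 genes tested. SE is the log2 fold change over the square root of F. CPM are TMM-scaled. The code was tested on simulated counts. Total counts of 16225691 to 22246755 per library make 3 counts, the floor, 0.136 to 0.191 CPM. Alternatives used limma 3.58.1 and DESeq2 1.42.0, other scalings and filters, a fit of 2 groups, a replicate block, and each library left out.

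The members and lists were chosen with earlier results of these data known. Named genes are the 9 factors, the targets, the 3 most correlated genes per factor, overlapping genes, and up to 4 called genes per list and comparison with the smallest adjusted p, of which the text gives a part. Genes overlapping a factor on the other strand were checked for shared exons.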

Additional observations from a re-analysis of the deposited data

How the results depend on the processing

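Of 1188 values of the 9 factors (54 combinations of a factor and a comparison, each under 22 alternatives), 1144 kept their direction and their side of the threshold, 16 lost a call, 15 gained one and 13 reversed. For 39 of the 54, no alternative changed either. No reversed value had been called. With library size alone the difference of KLF4 was 0.00719 for ATF3 against APOE siRNA, that of GRHL3 -0.0922 and that of TFAP2A -0.0825 for APOE against CXCL14 siRNA. With 1 library left out, values ran from -0.123 to 0.0786 for KLF4 and from -0.0623 to 0.00795 for GRHL2 in ATF3 against APOE siRNA, from -0.0476 to 0.120 for TFAP2C with ATF3 siRNA and from -0.0863 to 0.145 for OVOL1 with CXCL14 siRNA against control siRNA, and from -0.0829 to 0.00203 for GRHL3 in ATF3 against CXCL14 siRNA. The count of factors called between ATF3 and APOE siRNA ran from 3 to 5, and that of all genes called with ATF3 siRNA against control from 1916 (without control replicate 1) to 3003, beside 3041 with all libraries. The causes were not tested.

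Scaling by library size alone put the median log2 difference of all genes at -0.10 in ATF3 and -0.11 in APOE against CXCL14 siRNA, where TMM gave -0.0014 and 0.0082, and moved the share of calls that were higher to 41.5% and 39.6% there, against 52.9% and 52.0% with TMM; with ATF3 siRNA against control it was 44.0%, against 55.2%. KLF4 was then called lower with ATF3 and APOE siRNA than with CXCL14 siRNA (adjusted p = 0.0146 and 0.0122), and TFAP2A higher with CXCL14 siRNA than with control siRNA (adjusted p = 0.00843). The TP63 call with APOE siRNA was also lost without a filter (adjusted p = 0.0514).

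Over 18 pairs of libraries with the same replicate number, deviations from the group means correlated at -0.02 to 0.23, with 11 over 0.1, against -0.24 to 0.10 for pairs with different numbers, and 10 of 12 libraries correlated best with one of their own number. Numbers were taken to pair samples where every pair of a comparison was over 0.1. This held for APOE against CXCL14 siRNA (0.225, 0.104 and 0.234) and for no other comparison. The rest is a hint from the data, not the design. The main values of APOE against CXCL14 siRNA above come from the fit without pairing. With the replicate block, 5 factors were called with ATF3 siRNA, 8 with APOE siRNA and 6 with CXCL14 siRNA against control, TFAP2A being added with CXCL14 siRNA (adjusted p = 0.0443), and KLF4 was called between CXCL14 siRNA and ATF3 (adjusted p = 0.0297) and APOE siRNA (adjusted p = 0.0493).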
